A study of Homo sapiens with 3 samples.

Results

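The WNT feedback inhibitors examined here are 10 genes whose products switch the WNT pathway off again: *AXIN2*, *NKD1*, *NKD2*, *ZNRF3*, *RNF43*, *NOTUM*, *DKK1*, *DKK4*, *WIF1* and *SFRP1*. They were found by gene symbol among the 23131 genes of a Cuffdiff table, and all 10 had exactly 1 row. The cells were HCT-116, a human colon carcinoma line in which APC is wild type and one change in β-catenin (labelled CTNNB1ΔSer45) makes it resistant to degradation. They were treated on 2 consecutive days with a pool of siRNA against *APC*, with a pool of scrambled siRNA, or with transfection reagent and no siRNA, and RNA was taken 48 hours after the second treatment. The labels call the last group both mock and untransfected, and it is called untransfected here. Each condition had 1 library. The table holds values for the anti-*APC* library, called siAPC here, and the untransfected library. The library of scrambled siRNA was not used, and the part of siRNA delivery in these ratios was not tested.

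In the absence of a WNT signal, APC works with the AXIN scaffold proteins in a cytoplasmic complex that marks β-catenin for destruction. When the complex is blocked, β-catenin accumulates and switches on genes together with TCF/LEF factors in the nucleus, and several of those genes encode inhibitors of the same pathway. Whether each inhibitor examined here is switched on in this way was not tested. Inside the cell act the scaffold AXIN2 and the Dishevelled-binding proteins NKD1 and NKD2. At the membrane ZNRF3 and RNF43 are ubiquitin ligases that remove WNT receptors. Outside the cell NOTUM strips the lipid from WNT ligands, DKK1 and DKK4 block the LRP co-receptors, and WIF1 and SFRP1 bind WNT ligands. In the intestine *AXIN2*, *ZNRF3*, *RNF43* and *NOTUM* are commonly read as signs of an active pathway.

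Of the 10 genes, 6 could be compared between the libraries. After anti-*APC* siRNA 3 of these 6, *AXIN2*, *NKD1* and *ZNRF3*, were at least 1.5-fold higher than in untransfected cells. The other 3, *NKD2*, *NOTUM* and *DKK1*, stayed within 1.5-fold. Of all 11874 genes compared in the same way, 2.51% were at least 1.5-fold higher and 6.52% at least 1.5-fold lower. *DKK4*, *WIF1* and *SFRP1* were at or near 0 in both libraries, and *RNF43* was not measured. This is 1 library against 1, so no difference has a replicate check and no test was made.

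**Figure D1:**
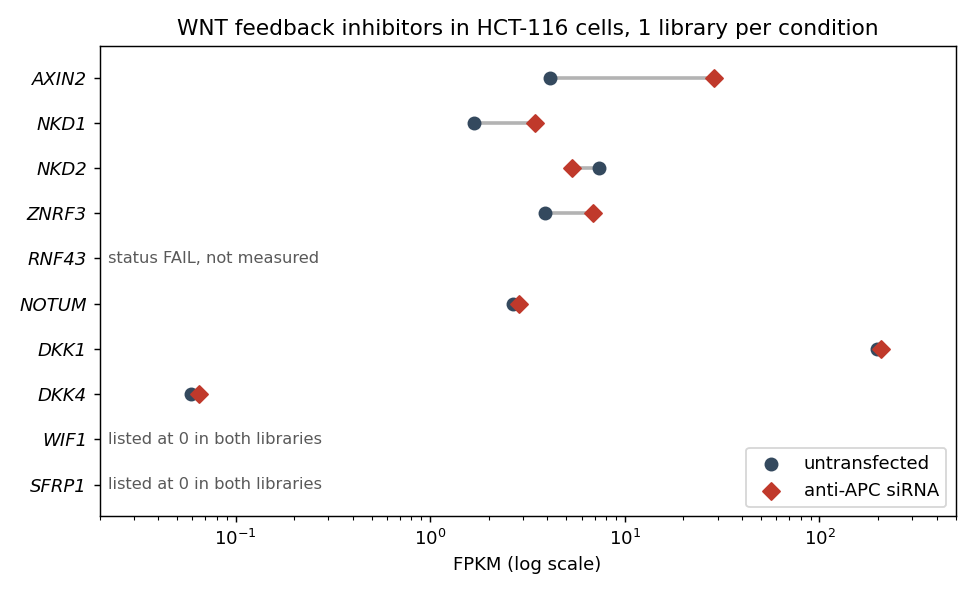
FPKM of each WNT feedback inhibitor on a log axis in the untransfected library (dark circles) and the anti-*APC* siRNA library (red diamonds), with 1 library per condition and therefore no error bars. The markers of *AXIN2* lie far apart (4.11 and 28.7 FPKM), those of *NKD1* and *ZNRF3* less so, and those of *DKK1* nearly coincide near 200 FPKM, and *RNF43*, not measured, and *WIF1* and *SFRP1*, listed at 0, have no markers.

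The values are FPKM, which count fragments relative to transcript length and to the size of the library. With single reads FPKM and RPKM are the same. Comparisons between genes rest on the authors' transcript lengths, which are not given, and those between libraries are relative to each library's total. The table gives no read counts. The FPKM of 1 read was 1.10-fold higher in the anti-*APC* library, from 491 genes that share 1 ratio within 0.003 on the log2 scale. With exon lengths from GENCODE 44, genes detected in only 1 of the libraries placed the depth near 23200000 reads for the anti-*APC* library and 25600000 reads for the untransfected library. Estimated reads and 95% counting ranges given below use these depths, and the ranges cover counting error only, for reads without molecular identifiers. *APC* itself had 3.43 FPKM in the siAPC library and 9.15 FPKM in untransfected cells, or 0.375 of the untransfected level (log2 ratio -1.41). *CTNNB1*, which encodes β-catenin, had 178 and 177 FPKM. Of 8 colon epithelial markers, *EPCAM*, *KRT8*, *KRT18*, *CDH1* and *CDX2* were above 1 FPKM in both libraries, *KRT20* was below 1 FPKM, and *VIL1* and *CDX1* were listed at 0 in the untransfected library. The summed FPKM of the 8 markers was 1006 in the siAPC library and 1266 in untransfected cells, and *CDH1*, the E-cadherin gene, was lower at 12.1 against 19.0 FPKM. The part of this difference in the results for the inhibitors was not tested. Of 6 markers of other cell types, *COL1A1* was the only one above 1 FPKM, with 3.08 and 2.85 FPKM.

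A comparison set was formed of genes that Cuffdiff gave the status OK, with values above 0 in both libraries and a mean of at least 1 FPKM. It held 11874 genes, among them 6 of the 10 inhibitors. Each of these 6 had at least 1.68 FPKM in both libraries, so none entered through its higher library alone. In the set 2.51% of genes were at least 1.5-fold higher with anti-*APC* siRNA and 6.52% were at least 1.5-fold lower. Of the 6 inhibitors, 3 were higher and 0 were lower. Their median log2 ratio was 0.46, against -0.05 over all genes of the set, where the middle 50.0% of genes lay between -0.24 and 0.11. The 10 inhibitors were chosen with results of these libraries known, for genes called higher among them, and the counts are a description.

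*AXIN2*, the scaffold of the destruction complex that the pathway itself induces, rose most. Its locus in the table is on chromosome 17 of hg19 from 63524683 to 63557740. Its level was 28.7 FPKM in the siAPC library, an estimated 2800 reads, and 4.11 FPKM in untransfected cells, an estimated 440 reads. The log2 ratio was 2.81, with a counting range of 2.66 to 2.95. In bulk RNA, more transcript per cell and more cells with the transcript cannot be told apart. Of the 11874 genes in the comparison, 6 had a larger ratio. In untransfected cells *AXIN2* was a modestly expressed gene, above 18.9% of the set, and with anti-*APC* siRNA it was above 71.0% of it. Its constitutive paralog *AXIN1* stood at 6.37 FPKM in the siAPC library against 6.46 FPKM, for a log2 ratio of -0.02. *AXIN1* therefore had the higher level of this pair in untransfected cells and *AXIN2* the higher level after anti-*APC* siRNA.

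*NKD1* and *NKD2* encode the Naked cuticle homologs, which bind Dishevelled and dampen the signal from the receptors. *NKD1* (chromosome 16, 50582241 to 50674771) was at 3.44 FPKM in the siAPC library and at 1.68 FPKM in untransfected cells. The difference was 2.05-fold, with a log2 ratio of 1.04 and a counting range of 0.85 to 1.22. *NKD2* (chromosome 5, 1009168 to 1038925) was at 5.32 FPKM in the siAPC library and at 7.40 FPKM in untransfected cells. Its log2 ratio of -0.48 had a counting range of -0.72 to -0.23, and at 1.39-fold it stayed short of the 1.5-fold limit. The 2 ratios have opposite signs, but *NKD2* was not called, and its counting range includes the 1.5-fold limit (0.58 on the log2 scale). With 1 library per condition, a difference between the paralogs in their response was not tested. *NKD2* was 4.41 times *NKD1* in FPKM in untransfected cells and 1.55 times *NKD1* after anti-*APC* siRNA. In the comparison set 98 genes had a larger ratio than *NKD1*, and 1197 had a lower ratio than *NKD2*.

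*ZNRF3* and *RNF43* encode the transmembrane ligases that take Frizzled receptors off the cell surface, and R-spondins raise WNT signaling by blocking them. *ZNRF3* (chromosome 22, 29279755 to 29453476) was at 6.84 FPKM in the siAPC library, an estimated 1100 reads, and at 3.89 FPKM in untransfected cells, an estimated 660 reads. It was 1.76-fold higher, with a log2 ratio of 0.81 and a counting range of 0.67 to 0.95. In untransfected cells *AXIN2* and *ZNRF3* were at nearly the same level, with 1.05 times as much *AXIN2* in FPKM. After anti-*APC* siRNA *AXIN2* was at 4.20 times *ZNRF3*. In the set 163 genes had a larger ratio than *ZNRF3*.

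*RNF43* has no value to compare. Cuffdiff placed it with 5 other genes at 1 locus on chromosome 17 from 56378594 to 56494931, and all 6 rows have the status FAIL with a 0 for either library. One of these is *SUPT4H1*, which encodes a general transcription elongation factor that cells need. Over the whole table all 269 rows with the status FAIL are listed at 0. For *RNF43* a 0 therefore means not measured, and nothing can be said of its level.

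**Figure D2:**
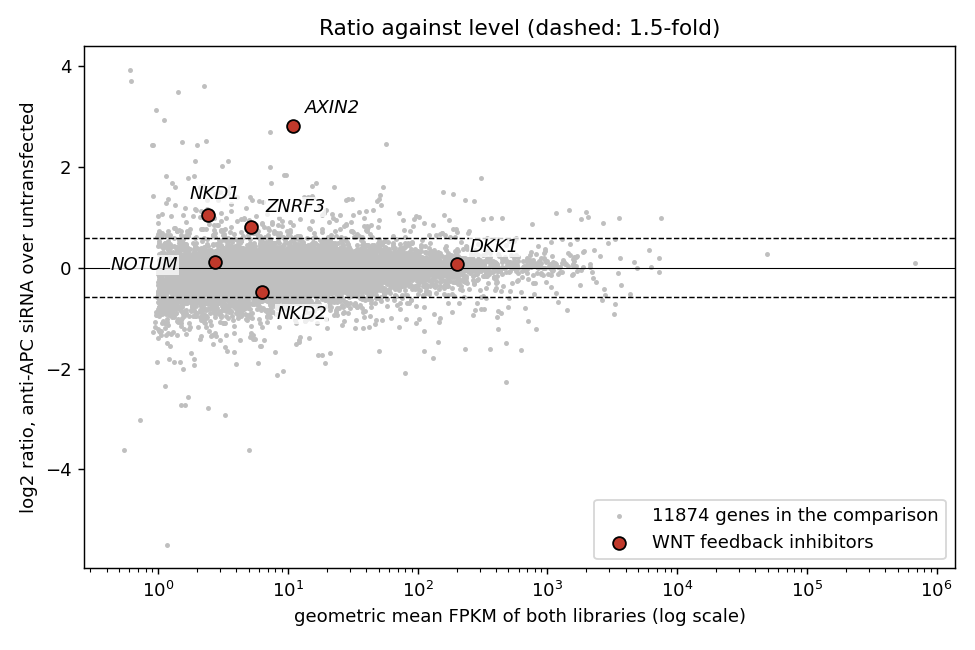
Log2 ratio of anti-*APC* siRNA over untransfected against the geometric mean FPKM of both libraries (log axis), with each of the 11874 genes of the comparison as a grey point and the 6 measured WNT feedback inhibitors in red. *AXIN2* stands at 2.81 above nearly all genes of like level, *NKD1* and *ZNRF3* lie above the upper dashed line of 1.5-fold, and *NOTUM*, *DKK1* and *NKD2* lie between the dashed lines.

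*NOTUM* encodes a secreted carboxylesterase that inactivates WNT ligands by removing their lipid. Its locus is on chromosome 17 from 79910383 to 79919057, and its level was 2.85 FPKM in the siAPC library and 2.66 FPKM in untransfected cells, an estimated 150 reads in each library. Its log2 ratio was 0.10, and the counting range of -0.23 to 0.43 includes 0, so that a difference smaller than this range was not detectable at this depth.

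*DKK1* was by far the most abundant of the inhibitors. It encodes a secreted protein that keeps WNT from its LRP co-receptors. Its locus is on chromosome 10 from 54074041 to 54077417, and its level was 207 FPKM in the siAPC library and 197 FPKM in untransfected cells, which placed it above 96.2% of the set in untransfected cells. The log2 ratio was 0.07, with a counting range of 0.02 to 0.11, and 3658 genes had a larger ratio. With an estimated 8700 and 9100 reads, its counting range was the narrowest of the 6. *DKK1* was at 48.1 times the FPKM of *AXIN2* in untransfected cells and at 7.20 times after anti-*APC* siRNA.

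Promoter sequences from RefSeq (GRCh38.p14) were on hand for 4 of the 10 inhibitors, *DKK1*, *NKD2*, *RNF43* and *WIF1*. Those of *DKK1* and *NKD2* are shown because both genes had a value and neither was called higher. Windows from 250 bases before to 50 bases after the start were searched on both strands for the TCF motif, spelled as AACAAAG or ATCAAAG or TACAAAG or TTCAAAG, and for the AP-1 motif TGACTCA, which do not overlap each other. The TCF motif was present in 13.8% and the AP-1 motif in 4.95% of 35116 promoter windows. The window of *DKK1* held 2 TCF matches, CTTTGAA from 95 to 89 bases before the start and CTTTGTT from 76 to 70 bases before it. The windows of *NKD2*, *WIF1* and *RNF43* held no TCF match, and 1 of the 2 windows of *RNF43* held an AP-1 match. Both printed stretches are the 250 bases before the start on the plus strand, with TCF matches in capitals. That of *DKK1* lies at chr10:52314031-52314280 and that of *NKD2* at chr5:1008552-1008801.
DKK1: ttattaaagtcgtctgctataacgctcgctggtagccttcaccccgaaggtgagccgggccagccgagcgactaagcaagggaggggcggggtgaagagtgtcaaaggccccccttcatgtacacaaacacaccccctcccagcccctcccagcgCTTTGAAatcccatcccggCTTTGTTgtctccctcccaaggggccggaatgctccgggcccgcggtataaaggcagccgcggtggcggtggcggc
NKD2: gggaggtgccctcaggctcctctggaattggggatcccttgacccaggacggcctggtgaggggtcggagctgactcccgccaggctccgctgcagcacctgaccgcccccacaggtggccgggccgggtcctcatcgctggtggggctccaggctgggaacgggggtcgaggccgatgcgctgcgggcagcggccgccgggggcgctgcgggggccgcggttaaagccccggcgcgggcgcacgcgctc
A match is a description of these letters and not evidence of binding. *DKK1*, whose window holds both matches, differed by 1.05-fold between the libraries, and *NKD2*, whose window holds none, by 1.39-fold in the lower direction. No promoter was on hand for *AXIN2*, *NKD1* or *ZNRF3*, the genes called higher, so a link between matches and ratios was not tested.

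All 10 are protein-coding genes in GENCODE 44 on GRCh37. Cuffdiff placed 9 of the 10 inhibitors alone at their locus, *RNF43* being the exception. GENCODE 44 annotates another gene overlapping 5 of the 6 measured inhibitors, in 4 cases on the opposite strand, and none of these overlapping genes has a row under its symbol. The use of strand in the authors' counting is not given in the sources used here. Overlap was taken over whole gene spans, and overlap of exons was not checked. If strand was not used, antisense reads over exons of *NKD1*, *ZNRF3*, *NOTUM* or *DKK1* would have been counted with that gene.

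*DKK4*, the paralog that also binds LRP co-receptors, was barely detected. Its locus is on chromosome 8 from 42231586 to 42234674, and its level was 0.0645 FPKM in the siAPC library and 0.0589 FPKM in untransfected cells, an estimated 1.2 reads in each library. Its log2 ratio of 0.13 is the ratio of genes with equal reads in both libraries, so it shows no difference that could be counted. *WIF1*, on chromosome 12 from 65444404 to 65515346, and *SFRP1*, on chromosome 8 from 41119476 to 41166990, encode secreted proteins that bind WNT ligands. Both are listed at 0 in both libraries. *DKK4*, *WIF1* and *SFRP1* carry the status NOTEST, which Cuffdiff gives where there are too few reads for a test. Of all rows with this status, 3881 are at 0 in both libraries.

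Other genes of the pathway were read from 3 lists. The first holds 20 other extracellular and membrane inhibitors, of which 17 have a row in the table and 4 were in the comparison set. Of these 4, 0 were higher and 0 were lower by 1.5-fold, against 2.51% and 6.52% of the whole set. They are *KREMEN1* and *KREMEN2*, co-receptors of the DKK proteins, and *GPC4* and *TPBG*, cell surface proteins, with log2 ratios from -0.23 for *KREMEN2* to 0.04 for *KREMEN1*. Of the 13 outside the set, 5 are listed at 0 in both libraries, and the highest is *FRZB*, a secreted Frizzled-related protein, with 0.278 and 0.268 FPKM. No gene of this list came near the FPKM of *DKK1* in either library.

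The second list holds 20 other genes, mostly of intracellular inhibitors and corepressors, with 11 in the comparison set. Among the 11 is also *RYK*, a gene of a transmembrane WNT receptor. Of these 11, 0 were higher and 1 was lower, against 2.51% higher and 6.52% lower in the whole set. With 11 genes, 1 lower gene is a description only. The lower gene was *CBY1*, whose product Chibby binds β-catenin and keeps it from TCF factors, with 10.6 FPKM in the siAPC library and 18.3 FPKM in untransfected cells (log2 ratio -0.78, counting range -0.99 to -0.57). *CTNNBIP1*, whose product ICAT also binds β-catenin, stayed just within the limit with 3.00 and 4.48 FPKM, a 1.49-fold difference. Its counting range of -0.83 to -0.33 includes the limit (-0.58 on the log2 scale in this direction), so its side of it is not resolved. The median log2 ratio of the 11 genes was -0.12.

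The third list holds 24 other β-catenin/TCF target genes that do not inhibit the pathway in the same way, with 17 in the set. Of these, 2 were higher, 3 were lower and 12 stayed within 1.5-fold, and the median log2 ratio was 0.11. Over the whole set 2.51% of genes were higher and 6.52% lower. *SP5* and *EPHB3* were below 1 FPKM in one library and entered the set only through the other, so their calls are not read as support for a direction. *SP5*, a transcription factor gene, went from 0.394 to 2.14 FPKM (log2 ratio 2.44, counting range 1.74 to 3.14), and *BMP4*, a secreted growth factor gene, from 68.5 to 139 FPKM. The lower genes were *EPHB2* (4.10 to 1.59 FPKM), *EPHB3* (1.34 to 0.730 FPKM) and *CD44* (111 to 71.3 FPKM), which encode surface receptors, and *EPHB2* shares its locus in the table with other genes. *TCF7* and *SOX9*, which encode transcription factors, were just within the limit at 1.47-fold and 1.46-fold higher. Their counting ranges of 0.45 to 0.65 and 0.48 to 0.62 include the limit (0.58 on the log2 scale), so their side of it is not resolved. *LEF1* is listed at 0 in both libraries, and *LGR5*, the stem cell R-spondin receptor, is listed at 0 in the siAPC library and at 0.0271 FPKM in untransfected cells. The counting range of *SP5* includes the log2 ratio of *AXIN2*, so the order of these genes is not resolved at this depth.

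**Figure D3:**
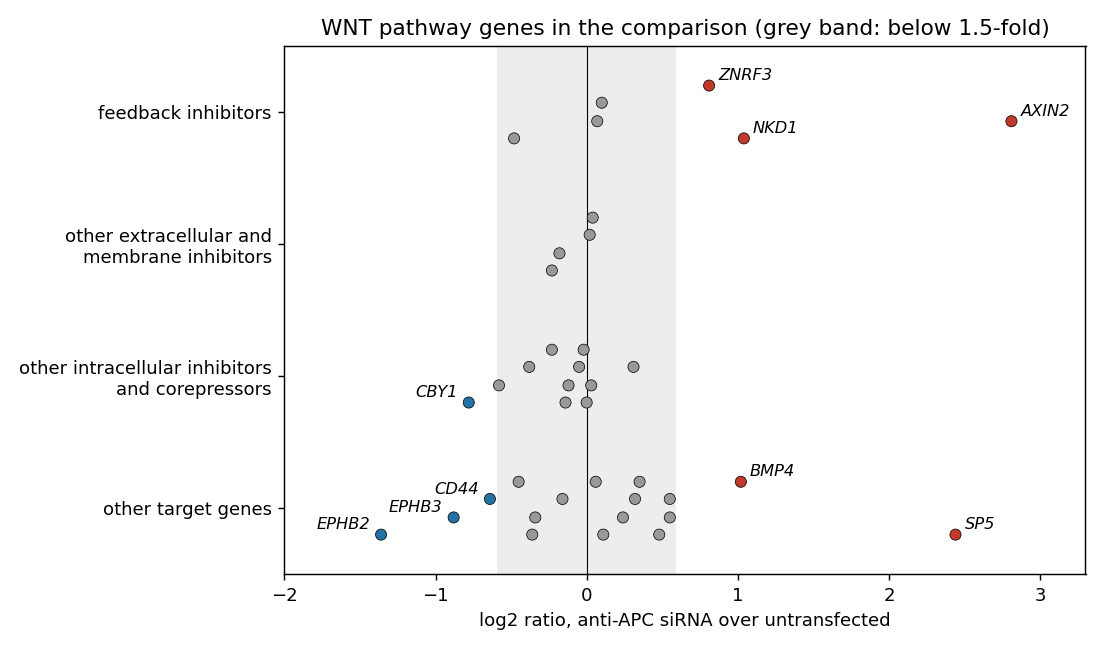
Log2 ratio of anti-*APC* siRNA over untransfected for each gene of the comparison set in 4 groups, with 1 point per gene, spread vertically only for legibility. Red points are at least 1.5-fold higher, blue points at least 1.5-fold lower and grey points within the grey band. The feedback inhibitors have 3 red and 0 blue points, and the other target genes have 2 red and 3 blue. Among the latter, *SP5* (red) and *EPHB3* (blue) were below 1 FPKM in 1 library and entered the set only through the other. Their calls are not read as support for a direction. Over the whole set 2.51% of genes were higher and 6.52% lower.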

How the data were processed

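RNA of HCT-116 cells was sequenced as single-read TruSeq libraries, 1 for each of 3 conditions. The authors used Cufflinks and Cuffdiff to turn reads into gene levels, and the submitters' processing notes name hg19. Versions, aligner, annotation and read length are not given in the sources used here. The FPKM values the authors deposited for the anti-*APC* and untransfected libraries were used, with the status and locus of each gene. The other columns (log ratio, test statistic, p, q and significance) hold the authors' own comparison and were not used. Table starts are 0-based: the start plus 1 is an annotated transcript start for 42.0% of 17173 loci of 1 gene, against 5.5% for the start itself. Loci are printed 1-based.

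Ratios are log2 of siAPC over untransfected FPKM with no pseudocount added, and a gene was called at 1.5-fold or more. With 1 library per condition there was no test and no p-value. Read depth was the mode, over genes at 0 in the other library, of the depth at which the gene would hold 1 read, using MANE Select exon lengths inside each locus. The authors' own transcript lengths are not given in the sources used here, so read numbers are estimates. Counting ranges are 1.96 standard errors of a ratio of Poisson counts. The inhibitors, lists and fold limit were chosen with earlier results of these data known. Genes named are the 10 inhibitors, *APC*, *CTNNB1*, markers, and list genes past the limit. Genes named after their values were seen are *AXIN1*, *CTNNBIP1*, *RYK*, *FRZB*, *TCF7*, *SOX9*, *LEF1*, *LGR5* and *SUPT4H1*. The 4 genes of the first list within the limit and the neighbouring genes were also named after their values were seen. The calculations were tested on simulated data, in which 200 genes were changed 3-fold and 200 were recovered. The changed genes had at least 5 FPKM in the untransfected library. *AXIN2*, *ZNRF3* and *NKD1* are below that level there, so the simulation does not cover their calls. Versions were numpy 2.4.6, pandas 2.3.3 and matplotlib 3.10.9 under Python 3.11.15.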

Additional observations from a re-analysis of the deposited data

How the results depend on the processing

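Among the inhibitors, 3 genes were higher and 0 lower by 1.5-fold under both pseudocounts, median subtraction, a mean of at least 0.3 FPKM, any status but FAIL, and loci of 1 gene. A fold limit of 2 left 2 higher (*AXIN2* and *NKD1*), and a mean of at least 5 FPKM left 2 of 4 (*AXIN2* and *ZNRF3*), since *NKD1* and *NOTUM* are below it. Over all 11874 genes of the set, the 298 higher (2.51%) and 774 lower (6.52%) became 107 (0.901%) and 157 (1.32%) at 2-fold. A mean of at least 5 FPKM kept 9068 genes, with 180 higher (1.99%) and 335 lower (3.69%). Loci of 1 gene kept 9053 genes, with 173 higher (1.91%). A pseudocount of 1 FPKM gave 432 lower (3.64%). The smaller sets account for part of the lower counts. The other counts over all genes stayed within 1.5 times. Of 18 recomputed log2 ratios of single inhibitors, 15 stayed inside the counting range of the main ratio and 0 changed direction. With a pseudocount of 1 FPKM *AXIN2* was at 2.54 and *NKD1* at 0.73, and with the median subtracted *DKK1* was at 0.12. Leaving out a replicate was not possible with 1 library per condition, and no paired analysis was possible because each condition has 1 library. At this depth *DKK4*, with an estimated 1.2 reads in each library, gives no usable ratio, and *WIF1* and *SFRP1* are listed at 0.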

Other observations

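The nearest protein-coding genes with a value on each side of the 6 measured inhibitors were also read, a choice made after the data were seen. Of these 12 neighbours, 7 were in the comparison set. Of the 7, 0 were higher and 0 lower by 1.5-fold, against 2.51% and 6.52% of the whole set. *CEP112*, 73.9 kb from *AXIN2*, was at 3.67 FPKM in the siAPC library and 3.39 FPKM in untransfected cells (log2 ratio 0.11). *RGS9*, 300.9 kb away on the other side of *AXIN2*, was too low for the comparison with 0.628 and 0.438 FPKM. *BRD7*, 179.4 kb from *NKD1*, had 40.4 and 40.9 FPKM. *XBP1*, 83.2 kb from *ZNRF3*, had 40.6 and 40.3 FPKM, and *KREMEN1*, beyond *C22orf31* on the other side, had 7.92 and 7.71 FPKM. Close to *NOTUM*, *ASPSCR1* at 16.4 kb had 9.38 and 10.9 FPKM, and *MYADML2* at 5.3 kb was below 0.05 FPKM in both libraries.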
